A study of Mus musculus with 40 samples.

Results

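Sensory neurons use some transient receptor potential (TRP) channels to sense heat, cold and irritant chemicals. The 8 genes described here encode channels of this family: Trpv1, Trpv2, Trpa1, Trpm8, Trpm2, Trpm3, Trpc1 and Trpc6. They were chosen by name, and every probe that the platform's probe table assigns to them was taken, which gave 14 probes of the 25697 on the array and 8 genes of 16593. All 40 arrays are from adult male C57BL/6J mice, 9 to 10 weeks old, and hold RNA of dorsal root ganglia, which house the cell bodies of sensory neurons. In the injured mice, spared nerve injury (SNI) was done: of the 3 branches of the sciatic nerve, the tibial and the common peroneal were tied and cut and the sural was left whole. Ganglia were sampled in 12 groups, at 8 h, 16 h, 1, 2, 3, 5, 6, 7 and 8 days (3 arrays each) and at 4, 9 and 10 days (2 arrays each), and 7 arrays hold ganglia of naive mice that had no operation. No sham-operated group is among these arrays, so injury and surgery cannot be told apart, and the sources used here do not say which ganglia were taken or whether an array holds 1 mouse or a pool. P-values thus reflect how these arrays varied, which may be in part technical variation.

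TRP channels are cation channels built from 4 like subunits, and opening them depolarises the nerve ending. Trpv1 is the capsaicin and heat receptor of peptidergic nociceptors. Trpa1 is opened by mustard oil and other reactive irritants, Trpm8 by menthol and cold, and Trpm3 by heat and pregnenolone sulphate. Trpv2 is a relative of Trpv1 found in larger sensory neurons and also in macrophages. Trpm2 answers ADP-ribose and oxidative stress and is found in neurons and immune cells, and Trpc1 and Trpc6 are canonical TRP channels that act downstream of phospholipase C.

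Few differences among the 8 channels passed the test after the injury, and the clearest was in Trpv2 at 16 h. Of the 7 channels that could be tested, Trpv2 was 1.39-fold above naive ganglia at that time, and no other test at a single time passed the threshold. When the times were averaged over the first day, over 2 to 5 days and over 6 to 10 days, no channel passed the test against naive ganglia. Of all genes 1.12%, 10.9% and 10.9% passed in these phases. With only 7 channels, none passing does not set them apart from those shares. Trpa1 stayed below the detection level on every array.

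Levels are normalized log2 signals, and a probe was taken as measured where it lay above 6.84 on at least 3 arrays. That detection level is the mean log2 signal at a detection p of 0.05 on the 3 arrays whose deposited detection values follow their own signal. Trpv1, Trpv2, Trpc1 and Trpc6 each had a probe above that level on all 40 arrays. Trpm2 was above it on 37 arrays and the strongest probe of Trpm3 on 28. Trpm8 was above it on only 3 arrays, and the 1 probe of Trpa1 on none. Of the 14 probes 11 were kept, and the brightest kept probe stands for its gene. A probe's brightness also depends on its sequence, so levels are compared between samples and never between genes. In whole ganglia, fewer cells of a type and less RNA per cell cannot be told apart.

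**Figure D1:**
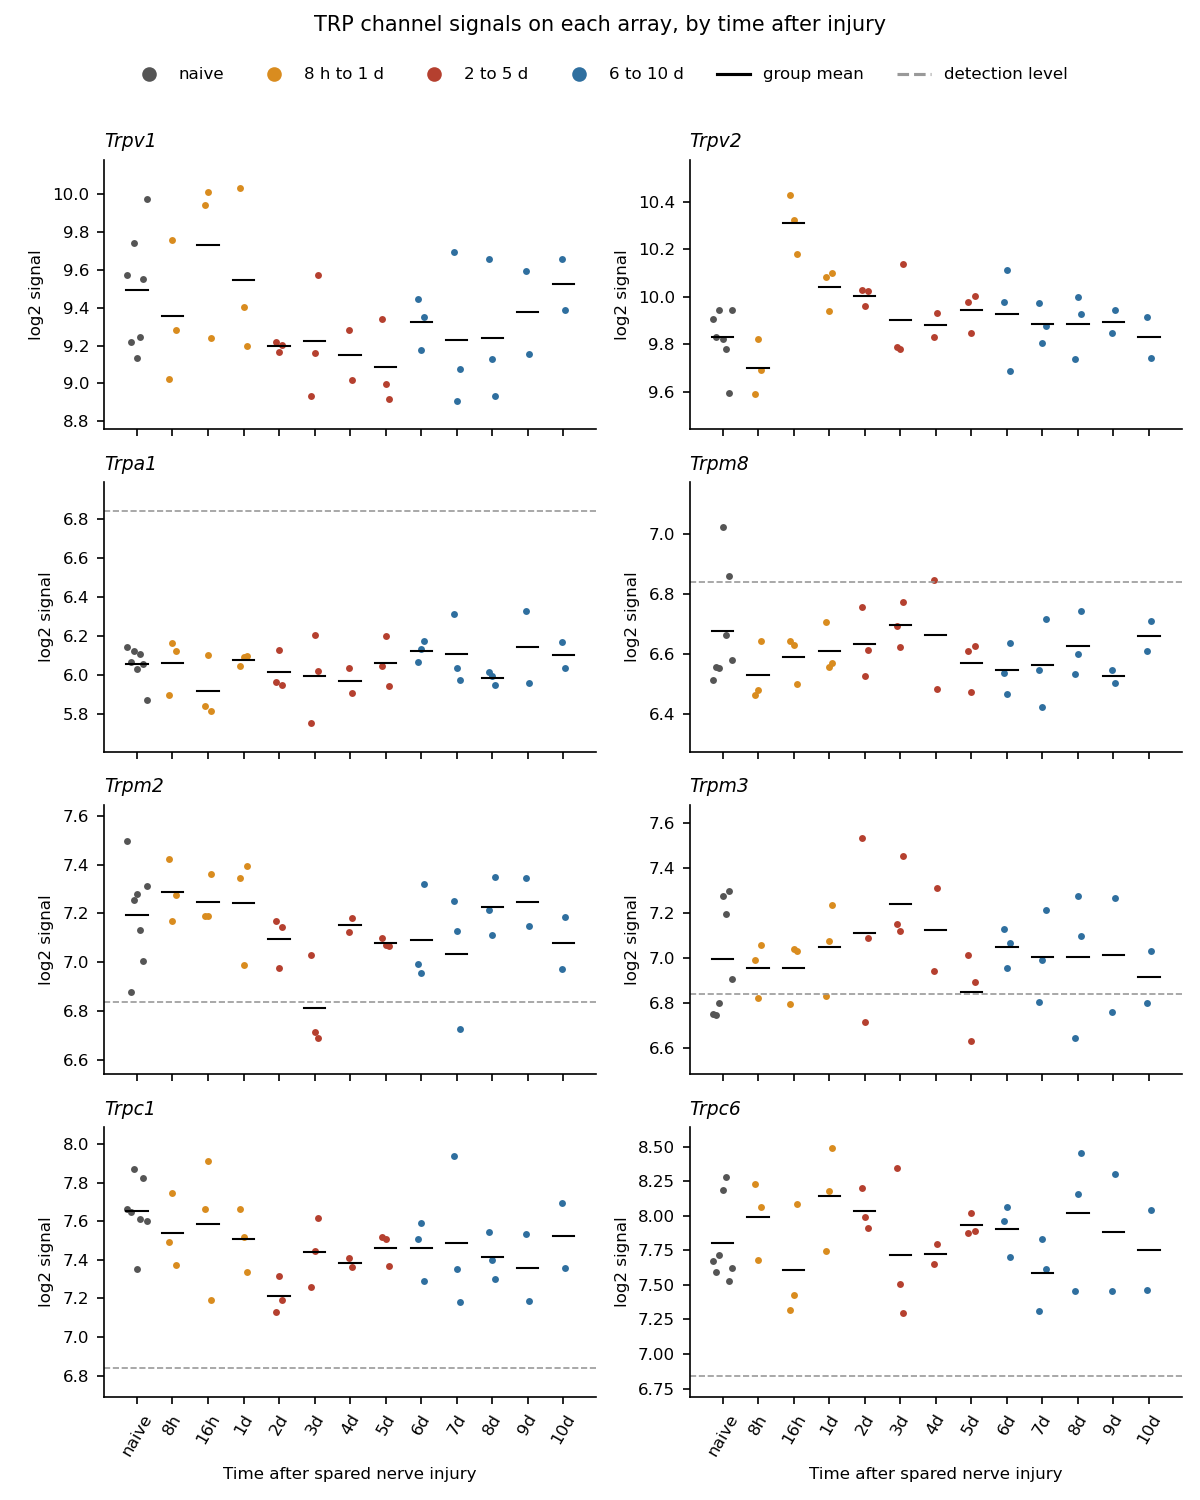
Normalized log2 signal (y axis) of the 8 TRP channel genes on each of the 40 arrays, by group in order of time (x axis); points are arrays, black bars are group means and the dashed line is the detection level of 6.84 where it falls in range. Trpv2 stands above all naive arrays on the 3 arrays at 16 h, Trpa1 lies below the detection level throughout, and Trpv1 and Trpc6 spread widely within groups.

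Trpv2 was measured at 10.43, 10.32 and 10.18 on the arrays at 16 h, against a lowest level of 9.60, a median of 9.83 and a highest level of 9.94 on the 7 naive arrays. All 3 arrays at 16 h thus lay above all naive arrays, which held for 2.12% of the 10519 genes tested. The log2 difference was 0.48 ± 0.09 (SE; 95% interval 0.29 to 0.67), with a limma adjusted p of 0.00495 after Benjamini-Hochberg (BH) over all genes. At this time 0.713% of all genes passed the test, and 0.542% did so upwards.

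Trpv2 passed at no other single time. At 8 h Trpv2 had been at 9.59, 9.82 and 9.69, with no array above the naive range. By 1 day it stood at 10.08, 9.94 and 10.10, with 2 of 3 arrays above all naive arrays and a log2 difference of 0.21 ± 0.09 that did not pass (limma adjusted p = 0.362). At 2 days all 3 arrays, at 10.03, 9.96 and 10.02, still lay above the naive range, as for 4.6% of all genes, yet the difference of 0.17 ± 0.09 did not pass either (limma adjusted p = 0.393). From 3 to 10 days the group means lay between 9.83 and 9.94, inside the naive range.

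Between consecutive times, the step of Trpv2 from 8 h to 16 h was 0.61 ± 0.11 on the log2 scale, with a limma adjusted p of 0.00373. That step passed for 0.39% of all genes. The step from 16 h to 1 day was -0.27 ± 0.11 and did not pass (limma adjusted p = 0.59), where 0.057% of all genes passed, and none of the 9 later steps of Trpv2 passed. Over the 12 injured times together, Trpv2 was the channel whose F-test passed (limma adjusted p = 0.0438), as it did for 7.55% of all genes. That F-test did not pass with no filter (limma adjusted p = 0.0853), with 3 ranges of the labels' sample numbers as a block (0.0693) or in 24 of the 40 fits that left out 1 array. In the order of its 13 group means, from 16 h down to 8 h, the 3 arrays at 16 h were clear of the 3 at 1 day, which came next, and the other 11 pairs of neighbours overlapped. For the other 7 channels all 12 pairs of neighbours overlapped. At least 1 pair without overlap was found in 11.6% of all genes.

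The call at 16 h rested in part on 1 array. Without 16 h replicate 1, the Trpv2 difference was 0.42 on the log2 scale with a limma adjusted p of 0.105. It kept its direction and its call when any other array was left out. With only the naive and 16 h arrays in the fit, the difference was the same and the limma adjusted p was 0.0863. The sample numbers in the labels were split into 3 ranges, each with 1 array at 16 h. Against the mean of the naive arrays of its range, Trpv2 stood higher by 0.56, 0.44 and 0.41. That all 3 stood higher was fixed beforehand, because every array at 16 h lay above every naive array, so it adds no support.

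Trpv2 is also a macrophage channel, so macrophage genes are given beside it. At 16 h 0 of 16 measured macrophage and microglia markers passed the limma test with BH adjustment in either direction, and 2 had an unadjusted p under 0.05. Of all genes 0.713% passed then, and 11.6% had such an unadjusted p. Their summed signal ranged from 12655 to 16722 units at 16 h, against 12537 to 15305 on naive arrays. In the 2 to 5 day phase 11 of the 16 rose, and in the 6 to 10 day phase 13 did, where 5.72% and 5.75% of all genes rose, with summed signals of 15584 to 19985 and of 19363 to 22172. In those phases Trpv2 differed from naive ganglia by 0.10 ± 0.07 and 0.05 ± 0.06 on the log2 scale and did not pass. Skeletal muscle markers, whose summed signal reached 5113 units on an array at 16 h and 9427 on a naive one, had 0 of 10 members past the limma test at 16 h and 0 with an unadjusted p under 0.05. The part of macrophages and that of muscle in the Trpv2 result were not tested.

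Across the 13 group means the genes most like Trpv2 were Serpina10 (Pearson r = 0.886), Camsap3 (0.861), Cacna1a (0.855), Uhrf1bp1 (0.840) and Arc (0.838), out of 10518 genes compared. These correlations describe 13 means that share their arrays. The 16 h mean, the highest of Trpv2, is among the 13, so genes chosen this way tend to stand high at 16 h. Their tests at 16 h use the same arrays and add no support for Trpv2. Arc, an immediate-early gene of neurons, passed the test at 16 h, with a log2 difference of 0.59 ± 0.12 (limma adjusted p = 0.00495). Serpina10 passed at 0.41 ± 0.10 (limma adjusted p = 0.0499), with a naive mean of 6.58 that lies below the detection level. Camsap3, at 0.43 ± 0.12 (limma adjusted p = 0.0835), and Uhrf1bp1, at 0.19 ± 0.12 (0.574), did not pass. Cacna1a, which encodes a pore subunit of P/Q-type calcium channels, was 0.31 ± 0.10 above naive and did not pass (limma adjusted p = 0.184).

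Because Trpv2 is the channel that passed, the sequence around its annotated starts is shown. RefSeq (GRCm38.p6) gives it 3 start sites on the plus strand of chromosome 11, and each window runs from 250 bases before the start to 50 after it. Start 1 lies in chr11:62574236-62574535, start 2 in a window that overlaps it, and start 3 in chr11:62575377-62575676. Motifs searched on both strands are TGANTCA (the AP-1 site), TGACGTCA (the cAMP response element), TGACG (its first part, contained in it), GGGCGG (the GC box) and TATAAA (the TATA box), and matches are set in capitals. Neither the window of start 1 nor that of start 3 holds any of them, so all letters below are lower case.
Trpv2 start 1: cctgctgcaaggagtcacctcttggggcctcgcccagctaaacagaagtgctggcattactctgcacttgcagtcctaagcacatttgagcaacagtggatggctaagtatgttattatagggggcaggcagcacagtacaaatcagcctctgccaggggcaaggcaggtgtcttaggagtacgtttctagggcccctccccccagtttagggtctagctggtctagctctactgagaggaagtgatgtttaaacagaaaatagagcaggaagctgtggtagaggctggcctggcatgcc
Trpv2 start 3: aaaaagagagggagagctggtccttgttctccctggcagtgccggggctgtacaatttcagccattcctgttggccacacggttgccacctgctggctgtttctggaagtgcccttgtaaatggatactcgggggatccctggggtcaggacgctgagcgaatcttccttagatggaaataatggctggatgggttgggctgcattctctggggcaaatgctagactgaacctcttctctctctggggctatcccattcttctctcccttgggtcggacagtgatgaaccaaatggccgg
Of 32851 mouse promoter windows of this length, 7.81% hold TGANTCA, 1.79% hold TGACGTCA, 20.8% hold TGACG, 35.7% hold GGGCGG and 13.6% hold TATAAA. The window of start 2 holds 1 TATAAA, at 37 bases after the start. No match says only that these letters are not in these windows.

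**Figure D2:**
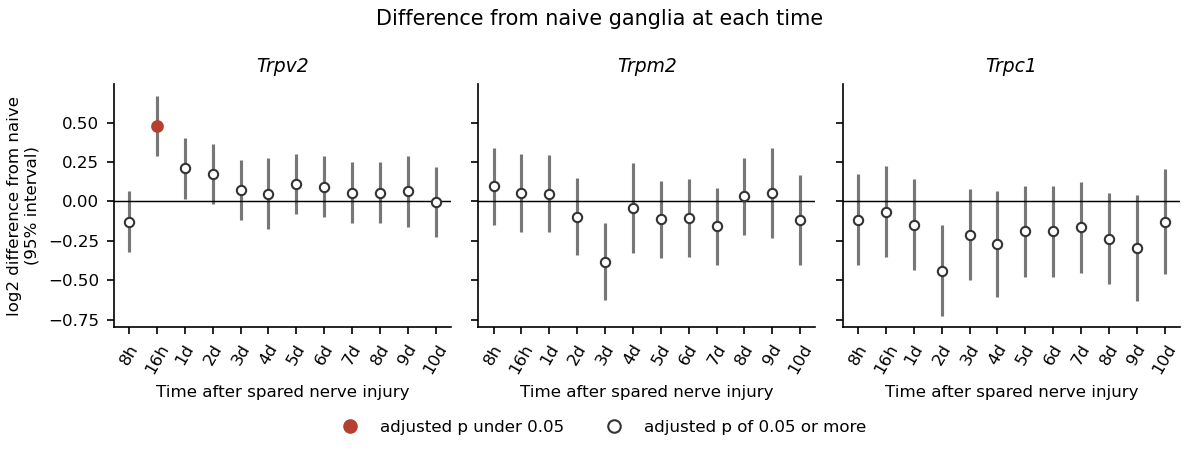
Log2 difference from naive ganglia (y axis, with 95% intervals) of Trpv2, Trpm2 and Trpc1 at each of the 12 times after injury (x axis); filled red points passed the limma test at an adjusted p under 0.05 and open points did not. Trpv2 at 16 h, at 0.48, is the filled point, and the lowest points are Trpm2 at 3 days, at -0.38, and Trpc1 at 2 days, at -0.44.

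Trpv1, the capsaicin receptor, was not called at any time. Its group means ran from 9.73 at 16 h, where the arrays read 9.94, 10.01 and 9.24, to 9.08 at 5 days, where they read 9.34, 9.00 and 8.92. The 7 naive arrays had a lowest level of 9.13, a median of 9.55 and a highest level of 9.98. At each time at least 1 array lay inside the naive range, and 22 of the 33 injured arrays lay inside the naive range.

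From 2 to 5 days 10 of 11 arrays lay below the naive mean of Trpv1. The log2 difference of that phase was -0.33 ± 0.15 (95% interval -0.63 to -0.03), with a limma adjusted p of 0.156 after BH. At 5 days, the time of its lowest mean, the difference was -0.41 ± 0.21 (limma adjusted p = 0.26), where 6.94% of all genes passed. The other probe of Trpv1, above the detection level on 39 arrays, gave -0.32 ± 0.12 for 2 to 5 days (limma adjusted p = 0.0887 over all 15462 kept probes). Both probes thus read lower in that phase and neither passed. For 6 to 10 days the differences of the 2 probes were -0.15 ± 0.14 and -0.16 ± 0.12.

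Trpm3, the heat and steroid channel, lay close to the detection level. Its strongest probe ranged from 6.63 to 7.53 on injured arrays and from 6.74 to 7.30 on naive arrays. Of the injured arrays 24 of 33 were above the detection level, and of the naive arrays 4 of 7. The highest group mean was 7.24 at 3 days and the lowest 6.85 at 5 days, and no time or phase passed; the largest difference, at 3 days, was 0.24 ± 0.16 (limma adjusted p = 0.426), where 5.83% of all genes passed.

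Of the 5 Trpm3 probes 3 were kept and 2 were below the detection level on all 40 arrays. The 3 kept probes did not move together: across the 40 arrays their Pearson correlations were -0.24, 0.16 and -0.12. Their differences for 2 to 5 days were 0.09 ± 0.11, 0.03 ± 0.07 and 0.03 ± 0.08 on the log2 scale, with none called. The last correlation, -0.12, is that of the 2 probes assigned to the same RefSeq transcript, and the brightest probe is assigned to another.

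Trpm2, the oxidative stress channel, was lowest at 3 days. The arrays then read 7.03, 6.72 and 6.69, against a lowest level of 6.88, a median of 7.25 and a highest level of 7.50 on naive arrays. Of the 3 arrays 2 lay below all naive arrays and below the detection level, and the mean of the 3, 6.81, lay below that level too, so the size of the difference is uncertain. The log2 difference was -0.38 ± 0.12 (95% interval -0.63 to -0.14), with a limma adjusted p of 0.055. Leaving out naive replicate 2 (adjusted p = 0.0205), naive replicate 6 (0.037), 1 day replicate 2 (0.0467), 3 day replicate 1 (0.0205) or 7 day replicate 3 (0.0406) brought the limma value below 0.05. Over all 40 such fits the difference ran from -0.49 to -0.32, and the limma adjusted p reached 0.273.

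At 4 days Trpm2 was back at 7.12 and 7.18, inside the naive range. The step from 3 to 4 days was 0.34 ± 0.16 and did not pass, and 0% of the 10519 genes did by limma with BH adjustment. Between 2 and 5 days all 11 arrays lay below the naive mean of 7.19, and the difference of the phase was -0.16 ± 0.09 (limma adjusted p = 0.259). The phase of the first day gave 0.07 ± 0.09 and that of 6 to 10 days -0.06 ± 0.08.

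Trpa1, the irritant receptor, could not be followed with this array. Its probe read between 5.76 and 6.33 on injured arrays and between 5.87 and 6.14 on naive arrays, all below the detection level of 6.84. It therefore had only an upper bound on every array, and no difference is given for it. Trpm8, the menthol receptor, was above the level on 1 of 33 injured arrays, at 6.85 at 4 days, and on 2 of 7 naive arrays, at 7.02 and 6.86. Its group means ranged from 6.52 to 6.70, so in 11 of the 12 injured groups it was not above the level on any array. The differences of the fit lay between -0.15 and 0.02 on the log2 scale with none called.

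Trpc1, a subunit of canonical TRP channels, read lowest at 2 days. The arrays then read 7.13, 7.32 and 7.19, against a lowest level of 7.35, a median of 7.65 and a highest level of 7.87 on naive arrays. All 3 lay below the naive range, which held for 4.8% of all genes at that time. The log2 difference was -0.44 ± 0.14 (95% interval -0.73 to -0.15), with a limma adjusted p of 0.079, where 3.86% of all genes passed.

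All 12 injured group means of Trpc1 lay below the naive mean, and these 12 differences share their naive arrays. From 2 to 5 days all 11 arrays lay below the naive mean of 7.65, with a phase difference of -0.28 ± 0.10 (limma adjusted p = 0.0717). From 6 to 10 days 11 of 13 arrays did, with -0.20 ± 0.10 (limma adjusted p = 0.214). Leaving out naive replicate 4, 16 h replicate 3 or 7 day replicate 1 brought the adjusted p below 0.05, to 0.0416, 0.0491 and 0.0442 at 2 days and to 0.0337, 0.0459 and 0.0418 for 2 to 5 days. Over all 40 such fits the 2 day difference ran from -0.49 to -0.40, and its limma adjusted p reached 0.291. The 2 to 5 day difference ran from -0.33 to -0.24.

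The other kept probe of Trpc1 did not follow. It was above the detection level on 20 arrays, and across the 40 arrays its correlation with the first was -0.07. At 2 days it gave -0.07 ± 0.12, and for 2 to 5 days 0.05 ± 0.08 (limma adjusted p = 0.763 over probes). At 5 days its arrays were at 7.01 to 7.20, all above the naive range of 6.67 to 6.98, as for 4.5% of all genes, with 0.25 ± 0.12 (limma adjusted p = 0.22). The low readings of Trpc1 are thus those of 1 of its 2 probes.

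Trpc6, opened by diacylglycerol, varied among arrays of the same group more than any other member. Its injured arrays ran from 7.29 to 8.49 with a median of 7.89, and its naive arrays from 7.53 to 8.28 with a median of 7.67. The group means ran from 8.14 at 1 day to 7.59 at 7 days. No time or phase passed, and the largest difference was 0.34 ± 0.23 at 1 day (limma adjusted p = 0.579), where 1.67% of all genes passed. The standard deviation within groups was 0.348 for Trpc6 and 0.318 for Trpv1, above those of 93.6% and 91.6% of all genes, and 0.126 for Trpv2, above that of 10.8%.

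By phase the 7 measured channels gave 28 differences, and 0 of them passed the limma test with BH adjustment, while 5 had an unadjusted p under 0.05. The share of all genes that passed was 1.12% for the first day, 10.9% for 2 to 5 days, 10.9% for 6 to 10 days and 7.08% for 6 to 10 days minus the first day. The median difference of the 7 channels was 0.05, -0.04, -0.06 and -0.09 on the log2 scale in these comparisons, beside -0.01, -0.01, -0.02 and -0.01 over all genes. For 27 of the 28 differences the 95% interval stayed within 0.5 of 0. The remaining one was Trpv1 at 2 to 5 days, whose interval reached -0.63. At single times the share of all genes that passed was 0.105% at 8 h, 0.713% at 16 h, 1.67% at 1 day, 3.86% at 2 days, 5.83% at 3 days, 2.46% at 4 days, 6.94% at 5 days, 5.2% at 6 days, 6.04% at 7 days, 4.18% at 8 days, 2.02% at 9 days and 2.79% at 10 days. Of the 84 tests of the channels 1 passed, 4 had an unadjusted p under 0.05, and 53 intervals stayed within 0.5 of 0. In both counts of intervals, those of Trpm8, Trpm3 and Trpm2 come from signals near or below the detection level. Such intervals may not bound the change in RNA. Over all genes the share with an unadjusted p under 0.05 ran from 5.32% at 8 h to 20.6% at 5 days.

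**Figure D3:**
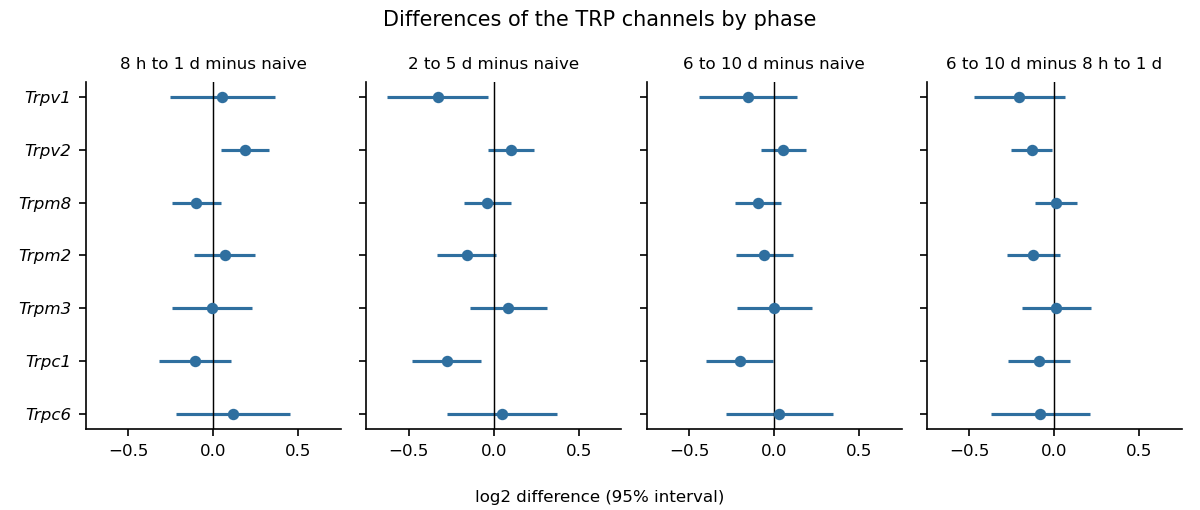
Log2 differences (x axis, points with 95% intervals) of the 7 measured TRP channels (rows) for the first day, 2 to 5 days and 6 to 10 days minus naive, and for 6 to 10 days minus the first day. No point passed the limma test; the lowest are Trpv1 at -0.33 and Trpc1 at -0.28, both at 2 to 5 days.

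Among arrays of the same group, the probes that stand for 3 of the channels varied together. Within groups the other kept probe of Trpc1 correlated with the one used at r = -0.16, and that of Trpv1 at 0.49. The pairs below thus hold for the brightest kept probes, and pairs of the other probes were not computed. Where Trpv1 read high on an array relative to its group mean, Trpc6 read low (Pearson r = -0.814, permutation p = 1e-05; Spearman rho = -0.819, permutation p = 1e-05, the smallest the permutations can give, n = 40 arrays). Trpc1 read high with Trpv1 (r = 0.75, permutation p = 5e-05; rho = 0.758, permutation p = 4e-05). Trpc1 and Trpc6 ran against each other (r = -0.687, permutation p = 0.0001; rho = -0.727, permutation p = 0.00013). These deviations were permuted within groups, 21 pairs were computed, and the adjusted p-values of the 3 were 0.00021, 0.000525 and 0.0007.

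Without the 2 arrays farthest from the median of the first gene, r was -0.803 for Trpv1 with Trpc6, 0.738 for Trpv1 with Trpc1 and -0.704 for Trpc1 with Trpc6. Within the injured groups alone r was -0.867, 0.804 and -0.7, and over the 7 naive arrays -0.594, 0.51 and -0.618. Of the other 18 pairs, Trpm3 with Trpc1 (r = -0.44, adjusted p = 0.0301) and Trpm3 with Trpc6 (r = 0.483, adjusted p = 0.0442) also passed this permutation test. Trpv2 with Trpv1 did not (r = 0.332, adjusted p = 0.19).

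Such pairing was widespread on these arrays. Of all genes 4.18% were as strongly tied to Trpv1 as Trpc6 was, and 2.89% to Trpc6 as Trpv1 was. In the same order the shares were 9.09% and 2.22% for Trpv1 with Trpc1, and 6.79% and 15.3% for Trpc1 with Trpc6. For Trpm3 with Trpc1 they were 17.9% and 35.5%, and for Trpm3 with Trpc6 11.9% and 42.3%. The first axis of the deviations from the group means held 38.2% of that variation over all genes. Trpv1 followed it with r = 0.887, Trpc1 with 0.758 and Trpc6 with -0.892 and Trpm3 with -0.529, while Trpv2 (0.309), Trpm8 (-0.126) and Trpm2 (-0.0459) hardly did. The other probe of Trpv1 followed it with r = 0.391. Along the same axis the mean level of the 10 pan sensory neuron markers ran at r = -0.812, of the 7 satellite glia markers at -0.803, of the 7 Schwann cell and myelin markers at -0.724 and of the 10 skeletal muscle markers at 0.531. With Trpv1 itself these 4 lists ran at r = -0.672, -0.775, -0.749 and 0.377. These are descriptions over the same 40 arrays, and their part in the differences of Trpv1, Trpc1 and Trpc6 was not tested.

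**Figure D4:**
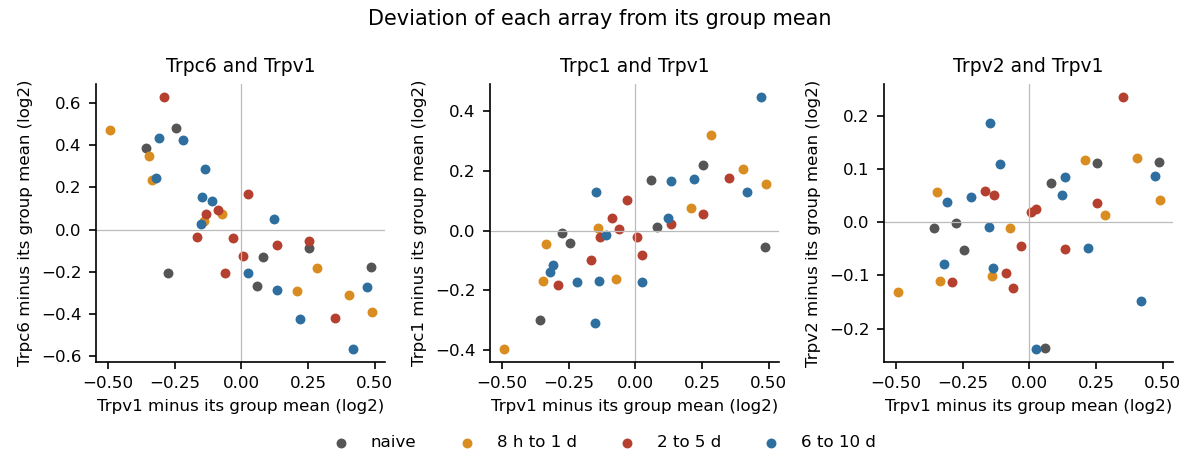
Deviation of each of the 40 arrays from its own group mean in log2 units: Trpc6, Trpc1 and Trpv2 (y axes) against Trpv1 (x axes), coloured by phase. Trpc6 falls (r = -0.814) and Trpc1 rises (r = 0.75) with Trpv1, and Trpv2 shows no clear relation (r = 0.332).

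With that axis added to the fit as a covariate, an alternative chosen after seeing the data, the Trpv1 difference for 2 to 5 days was -0.17 on the log2 scale in place of -0.33. For 6 to 10 days minus the first day it was -0.24 ± 0.07 and passed (limma adjusted p = 0.0136), against -0.21 ± 0.13 without the axis (limma adjusted p = 0.485). Trpv2 at 16 h kept its call with the axis, at 0.47 ± 0.09 (limma adjusted p = 0.00203). The axis was taken from the same values that were then tested.

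The promoter windows of the 3 channels whose brightest probes varied together are shown for comparison, again from RefSeq (GRCm38.p6) with matches to the 5 motifs in capitals. That of Trpv1 is chr11:73233899-73234198 on the plus strand, that of Trpc1 is chr9:95750299-95750598 on the minus strand, and that of Trpc6 is chr9:8543892-8544191 on the plus strand.
Trpv1: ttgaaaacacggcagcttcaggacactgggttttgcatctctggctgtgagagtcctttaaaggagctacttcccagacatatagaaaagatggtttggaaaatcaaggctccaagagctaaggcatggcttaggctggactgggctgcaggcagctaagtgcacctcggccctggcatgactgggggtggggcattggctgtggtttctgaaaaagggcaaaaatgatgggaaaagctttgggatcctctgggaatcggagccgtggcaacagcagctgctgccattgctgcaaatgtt
Trpc1: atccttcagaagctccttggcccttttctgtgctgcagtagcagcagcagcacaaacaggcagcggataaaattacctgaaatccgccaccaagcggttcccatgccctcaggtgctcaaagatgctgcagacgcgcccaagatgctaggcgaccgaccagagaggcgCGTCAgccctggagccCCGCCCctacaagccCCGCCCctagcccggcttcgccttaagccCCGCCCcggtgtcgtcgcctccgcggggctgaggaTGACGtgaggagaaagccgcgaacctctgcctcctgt
Trpc6: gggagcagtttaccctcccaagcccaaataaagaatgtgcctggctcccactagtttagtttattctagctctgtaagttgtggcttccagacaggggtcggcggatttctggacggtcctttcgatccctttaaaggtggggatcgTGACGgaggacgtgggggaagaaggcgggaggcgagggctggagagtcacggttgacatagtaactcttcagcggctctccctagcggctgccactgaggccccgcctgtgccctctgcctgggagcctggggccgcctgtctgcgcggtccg
The window of Trpc1 holds GGGCGG 3 times, all on the strand opposite to the gene, and TGACG 2 times. That of Trpc6 holds TGACG 1 time and that of Trpv1 none of the motifs. The window of Trpm2 also holds TGACG, as 20.8% of all windows do, and a match is a description of the letters only. Of the 8 channels 7 had a promoter sequence to search, with 10 start sites in all.

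Other TRP genes were given from a list of 20 relatives, of which 13 were measured. In the first day 0 of 13 passed the limma test with BH adjustment, and 1 had an unadjusted p under 0.05, Trpm6. Of all genes 1.12% passed in that phase, and 11.3% had such an unadjusted p. From 2 to 5 days and from 6 to 10 days 1 passed upwards and 0 downwards, where 5.72% and 5.75% of all genes rose and 5.21% and 5.12% fell. It was the same gene in both phases, Pkd2l1, which encodes a polycystin family channel known as an acid-sensing marker of taste cells and of neurons contacting the cerebrospinal fluid. The median difference of the list was 0.00, -0.04 and -0.07 in the 3 phases.

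On the 9 arrays of the first day Pkd2l1 ranged from 6.06 to 6.51, and none was above the detection level. From 2 to 5 days it ranged from 6.52 to 7.06, against 6.09 to 6.51 on naive arrays, and 5 of 11 arrays were above the detection level. From 6 to 10 days all 13 arrays were above the detection level, at 6.90 to 7.36, while 0 of 7 naive arrays reached it. This makes the late level at least 1.16-fold higher. For 2 to 5 days the bound is under 1 and no fold is given. The filter kept Pkd2l1 only through arrays of these 2 phases, so its levels are a description. Trpc7, a close relative of Trpc6, was lower from 6 to 10 days than in the first day, with a log2 difference of -0.32 ± 0.07 (limma adjusted p = 0.00231), where 2.69% of all genes fell and 4.39% rose. Its arrays ranged from 7.18 to 7.64 from 6 to 10 days, against 7.48 to 8.04 in the first day.

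Partners of these channels were given from a list of 38 genes for membrane adaptors, kinases, phospholipases and receptors that gate or sensitise them, of which 24 were measured. In the first day 0 of 24 passed the limma test with BH adjustment, and 3 had an unadjusted p under 0.05, namely Plcb3, Cdk5r1 and Faah. Among all genes 1.12% passed then, and 11.3% had such an unadjusted p. From 2 to 5 days 6 of 24 fell and 0 rose, and from 6 to 10 days 4 fell and 0 rose, where 5.21% and 5.12% of all genes fell and 5.72% and 5.75% rose. The list's median difference was -0.06, -0.10 and -0.13 in the 3 phases.

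Adaptors of the channels were among those that fell. Pirt, a membrane protein that binds Trpv1 and phosphoinositides, ranged from 12.43 to 13.06 from 2 to 5 days, against 12.99 to 13.44 on naive arrays, a log2 difference of -0.38 ± 0.11 (limma adjusted p = 0.0164). Of these 11 arrays 10 lay below all naive arrays, and no such share over all genes was computed for a phase. Tmem100, an adaptor between Trpa1 and Trpv1, passed from 6 to 10 days, at -0.30 ± 0.10 (limma adjusted p = 0.0451), with arrays from 10.65 to 11.36 against 11.01 to 11.45 in naive ganglia.

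Vamp1, a vesicle SNARE protein, fell in both later phases. Its arrays ranged from 10.06 to 10.72 from 6 to 10 days, against 11.07 to 11.26 on naive arrays, with -0.63 ± 0.08 (limma adjusted p = 1.11e-06). Of the phospholipase C genes Plcd4 fell in both phases, with -0.53 ± 0.09 from 2 to 5 days (limma adjusted p = 3.58e-05) and -0.52 ± 0.08 from 6 to 10 days (2.69e-05). Plcb3, whose enzyme acts downstream of G protein-coupled receptors, fell from 2 to 5 days, at -0.41 ± 0.10 (limma adjusted p = 0.00492), and from 6 to 10 days gave -0.21 ± 0.10 (0.193). Plcb4 passed in neither, at -0.08 ± 0.12 (limma adjusted p = 0.741) and -0.21 ± 0.12 (0.326). The prostacyclin receptor gene Ptgir gave -0.29 ± 0.09 from 2 to 5 days (limma adjusted p = 0.0326). Faah, which encodes the enzyme that breaks down the Trpv1 agonist anandamide, gave -0.28 ± 0.08 (limma adjusted p = 0.0257) and, from 6 to 10 days, -0.35 ± 0.08 (0.00399).

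Kinases that phosphorylate Trpv1 did not pass from 2 to 5 days. Prkce, protein kinase C epsilon, gave -0.17 ± 0.11 from 2 to 5 days (limma adjusted p = 0.357), Prkaca, the catalytic subunit of protein kinase A, -0.16 ± 0.08 (0.193), and Cdk5 -0.09 ± 0.07 (0.433). Src, the tyrosine kinase, gave 0.31 ± 0.12 (0.0826).

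**Figure D5:**
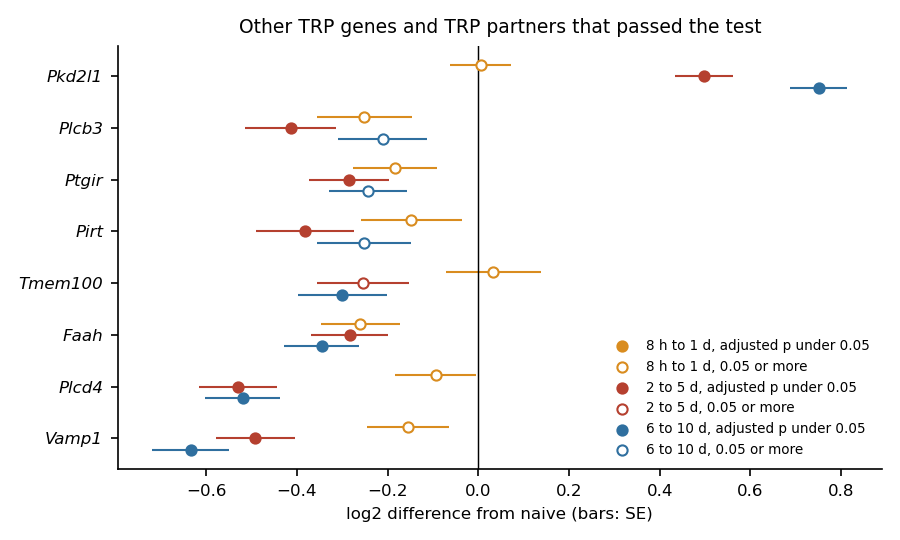
Log2 difference from naive ganglia (x axis; bars are standard errors) of the other TRP genes and TRP partners (rows) that passed the test against naive in at least 1 phase; filled points passed and open points did not, and colours give the phase. Pkd2l1 lies to the right of 0 at 2 to 5 and 6 to 10 days, and the 7 partners that passed lie to the left in those phases. Pkd2l1 was kept by the filter only through arrays of those phases.

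The tissue and the injury labels were checked once. Prph, Avil and Scn10a, genes of sensory neurons, were above the detection level on all 40 arrays, by at least 4.19 log2 units. Atf3, the transcription factor that marks axotomised neurons, read 8.42 to 11.55 on injured arrays, against 6.87 to 7.51 on naive arrays. Large-fibre neuron markers fell in 4 of 8 measured members in the 2 to 5 and in the 6 to 10 day phase. Of all genes 5.21% and 5.12% fell in these phases, and 5.72% and 5.75% rose. Of 10 pan sensory neuron markers 1 and 2 fell in these phases, and of 6 peptidergic nociceptor markers 3 fell and 1 rose, then 1 fell and 1 rose. Of 8 nonpeptidergic nociceptor markers Lpar3 fell and Lgals1 rose in both phases, and the others did not pass. Array medians of the raw intensity ran from 130.2 to 244.5 units, and precision is limited by how many arrays there are.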

How the data were processed

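RNA of dorsal root ganglia was measured on Illumina bead arrays; per the labels' protocols it was extracted with Trizol and made into biotin-labelled cRNA. Per the file headers, the authors deposited a table of signals (intensity) with a detection p-value for each probe and array, and a second table of log2 values, which equals the quantile-normalized log2 of those signals to within 5e-09. The deposited detection p-values match the array's own signal on 3 arrays and fail to on 37, so the detection level (6.84; 6.81 to 6.87) was taken from those 3, at a detection p of 0.05. For 10 day replicate 2 the name of the detection column gives another time than that of the signal column; the array was kept as labelled. A label that gives the time in days holds hours; group names give the time.

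In limma 3.58.1 (R 4.3.3), normexp with an offset of 50 corrected the background, quantile normalization followed, and log2 was taken. Probes above the level on at least 3 arrays were kept (15462), and the brightest kept probe stands for each of 10519 genes. Probes were named by the platform's table (23978 with 1 symbol, 0 with several, 1719 with none), 23962 of them through RefSeq. The fit had 1 mean per group over all 40 arrays and a variance trend, with BH per comparison and a threshold of 0.05. The phases are means of the 8 h, 16 h and 1 day groups, of the 2 to 5 day groups and of the 6 to 10 day groups. The members, lists and phases were chosen with earlier results of these data known. Named genes are the 8 members with every probe, the other TRP genes and partners that passed in the phase described with at most 4 that did not, the 5 genes most like a member that passed, and the checks of tissue and injury; genes named beside a count of 0 were chosen after their values were seen. Alternatives changed the background correction, normalization, filter, probe rule, arrays fitted, weights and blocks, and left out each array in turn. Simulated arrays had the same layout and 10519 genes, with noise drawn independently for each gene and array. There the 16 h comparison found 4% of genes changed by 0.25 log2 units, 56% at 0.5, 94% at 1 and 98% at 2. It called 0.0485% of unchanged genes. The 6 to 10 day comparison found 32%, 84%, 98% and 100%, and called 0.0969%. In the real arrays 38.2% of the variation within groups lies on 1 shared axis, so these rates may not hold for them.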

Additional observations from a re-analysis of the deposited data

Results flagged for a closer look

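Trpv2 differed between 8 h and 16 h after injury, by 0.608 on the log2 scale (limma adjusted p = 0.00373 for the step itself), and this was the step between consecutive times that passed for a member. The 3 arrays at 16 h read 10.43, 10.32 and 10.18, and the 3 at 8 h read 9.59, 9.82 and 9.69. That step passed the limma test for 0.39% of all genes.

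Among the 7 naive arrays 1 stood apart for Trpa1: its lowest level of 5.87 lay at a distance from the next that was 0.591 of the whole range, above Dixon's 95% critical value for 7 samples. About 1 in 20 groups would show this by chance, 8 genes were looked at, and all of these levels are below the detection level.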

How the results depend on the processing

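Of the tests of a channel at a single time 1 passed. That count of tests was 2 with normexp offset 16, with the filter of 20 arrays and with the mean of the kept probes. It was also 2 with the sample number ranges as a block and with the shared axis as a covariate. Robust variances and array weights gave 3, and the replicate block gave 0. The count of channels passing the F-test (1) was 0 with no filter and with either block, 2 with the shared axis and 5 with robust variances and weights. The count for 2 to 5 days (0) was 1 with only the arrays compared and 2 with robust variances and weights; that for 6 to 10 days minus the first day (0) was 1 with the shared axis. Leaving out each array gave 0 to 2 calls at single times, 0 to 1 in the F-test and 0 to 1 for 2 to 5 days; groups of 2 arrays then hold 1, which is assumed to vary like the others. Trpv2 at 16 h ranged from 0.42 to 0.50 over the alternatives, above 0 in all of them, with limma adjusted p from 7.0e-05 to 0.214; the highest was under the replicate block. Its F-test adjusted p ranged from 0.0187 to 0.227 when arrays were left out and was above 0.05 in 24 of 40 such fits, the highest without 16 h replicate 1.

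Below 0.05 in some alternatives were Trpm2 at 3 days (0.0486 with offset 16, 0.04885 with the filter of 20 arrays, 0.04803 with the mean of the kept probes, 0.000287 with robust variances and weights, 0.0338 with the shared axis), Trpc1 at 2 days (0.0493 with only the arrays compared, 0.00894 with robust variances and weights, 0.0496 with the sample number ranges), Trpc1 at 2 to 5 days (0.0314 with only the arrays compared, 0.0145 with robust variances and weights), Trpv1 at 2 to 5 days (0.0268 with robust variances and weights), and Trpv1 for 6 to 10 days minus the first day (0.0136 with the shared axis), as limma adjusted p. Over all alternatives Trpm2 at 3 days ran from -0.52 to -0.11 (limma adjusted p up to 0.178). Trpc1 ran from -0.55 to -0.18 at 2 days (up to 0.123) and from -0.37 to -0.11 at 2 to 5 days (up to 0.272). Trpv1 ran from -0.38 to -0.17 at 2 to 5 days (up to 0.256). For 6 to 10 days minus the first day it ran from -0.25 to -0.18 (up to 0.602). Differences near 0 changed sign. With robust variances and weights Trpc6 at 2 to 5 days gave -0.00336, Trpm2 in the first day -0.008385 and Trpm3 in the first day 0.04251. With the mean of probes Trpm3 gave 0.04809 in the first day and -0.01507 for 6 to 10 days minus it, and with neqc -0.001833 from 6 to 10 days. With the shared axis Trpc6 gave -0.129 and -0.024 at 2 to 5 and 6 to 10 days, and Trpm3 -0.0198 from 6 to 10 days. With the replicate block Trpm8 gave 0.0362, 0.106 and 0.0526 in the 3 phases, Trpm3 0.221 in the first day and Trpv2 -0.00731 from 6 to 10 days, and with the sample number ranges Trpm3 gave 0.00986. When arrays were left out, the range crossed 0 for Trpc6 at 2 to 5 days (-0.02874 to 0.1302), at 6 to 10 days (-0.05597 to 0.1142) and for 6 to 10 days minus the first day (-0.1692 to 0.0008992), for Trpm3 in the first day (-0.0513 to 0.04068), at 6 to 10 days (-0.04869 to 0.05235) and between them (-0.03925 to 0.06179), for Trpm8 at 2 to 5 days (-0.08254 to 0.0202) and for 6 to 10 days minus the first day (-0.008239 to 0.0264), and for Trpv1 in the first day (-0.02937 to 0.1342). The cause of these changes was not tested.

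The replicate numbers do not pair the arrays: deviations of same-numbered arrays correlate at 0.0084 on average, from -0.699 to 0.699, and 7 of 36 arrays correlate best with their own number. The number of genes called at 16 h (75) ranged from 31 with only the arrays compared to 411 with robust variances and weights, and that for 2 to 5 days (1150) from 648 with the replicate block to 2130 with robust variances and weights. In the same way, over the alternatives it ran from 4 to 47 at 8 h (11), 94 to 487 at 1 day (176), 280 to 993 at 2 days (406), 364 to 3316 at 3 days (613), 197 to 575 at 4 days (259), 460 to 936 at 5 days (730), 414 to 1380 at 6 days (547), 376 to 1062 at 7 days (635), 258 to 697 at 8 days (440), 139 to 364 at 9 days (213), 181 to 459 at 10 days (294), 39 to 212 for the first day (118), 551 to 1676 for 6 to 10 days (1144), 663 to 1131 for 6 to 10 days minus the first day (745) and 505 to 4554 in the F-test (794). Signals near the background limit Trpa1, Trpm8, Trpm3 and Trpm2.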
